A study of Mus musculus with 8 samples.

Results

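The comparison described here asks whether peptidoglycan (PGN), a polymer of the bacterial cell wall, changes gene expression differently in CD11b+ cells of 2 mouse strains. For each gene it is the response in NOD.Idd3 cells (PGN-treated minus unstimulated) minus the same response in NOD cells, on a log2 scale. It used all 8 of the series' 8 arrays and covered 18193 genes, each represented by 1 probe set. NOD mice develop autoimmune diabetes spontaneously, and NOD.Idd3 is a congenic strain on the same background with another allele at Idd3, a diabetes locus on chromosome 3 that holds Il2 and Il21. The 4 groups were unstimulated NOD, PGN-treated NOD, unstimulated NOD.Idd3 and PGN-treated NOD.Idd3. Each had 2 arrays, which the labels number as biological replicates 1 and 2. The cells of every group were kept for 4 h at 37 °C, either in medium without PGN or with PGN at 5 µg/ml. The labels do not give the tissue, the age or sex of the mice, the extent of the congenic segment, or whether a replicate was 1 animal or a pool. The p-values therefore measure only the spread between these samples, and how far that is a spread between animals is not known.

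CD11b (Itgam) is an integrin subunit of monocytes, macrophages and neutrophils. Such cells sense PGN and its fragments through TLR2 at the surface and NOD-like receptors inside the cell, which switch on NF-kB and MAP kinase signalling and so the genes of cytokines and chemokines. The same signal also induces brakes on the response, among them IL-10 and inhibitors of NF-kB. Interleukin 2, encoded within Idd3, is made mainly by T cells and sustains regulatory T cells.

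On these arrays Itgam lay between 7.87 and 9.02 (log2 level), and the myeloid genes Cd14 and Csf1r lay between 14.17 and 14.65 and between 13.51 and 14.05. Across genes, Pearson's r between both arrays of a group was 0.985 to 0.991. The median log2 level over genes was 6.38 to 6.47 on 7 arrays and 6.65 on replicate 2 of unstimulated NOD. For 3 of 13 cell type marker lists the mean level was higher on every NOD array than on any NOD.Idd3 array. They were B cell markers (11 genes, 7.10 to 8.19 in NOD and 6.13 to 6.90 in NOD.Idd3), macrophage markers (12 genes, 9.62 to 9.83 and 8.96 to 9.13) and dendritic cell markers (10 genes, 8.10 to 8.25 and 7.72 to 8.03). The 3′ minus 5′ difference of the Gapdh control probe sets, a sign of RNA or labelling quality, ran from 0.88 to 1.16 in NOD and from 0.72 to 0.80 in NOD.Idd3 samples. For the Actb control probe sets the strains overlapped, with 0.43 to 0.58 in NOD and 0.22 to 0.46 in NOD.Idd3 samples. The response of the Gapdh measure to PGN differed between the strains by -0.11 in replicate 1 and -0.08 in replicate 2. That of the Actb measure differed by 0.01 and 0.05. The part of these quantities in the results was not tested.

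The response to PGN was large in both strains, and no gene's response was shown to differ between them. Limma called 0 of 18193 genes for the difference in response (0%), with a smallest Benjamini-Hochberg adjusted p of 0.942. The most negative estimate among all genes was that of the cytokine gene Il6, which rose 11.9-fold with PGN in NOD and 3.67-fold in NOD.Idd3 cells. The most positive was that of Nos2, the inducible nitric oxide synthase gene, with 3.27-fold in NOD and 15.5-fold in NOD.Idd3 cells. Il10, the gene of an anti-inflammatory cytokine, rose 92.9-fold and 90.3-fold. These are ratios of group means on the log2 scale.

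**Figure D1:**
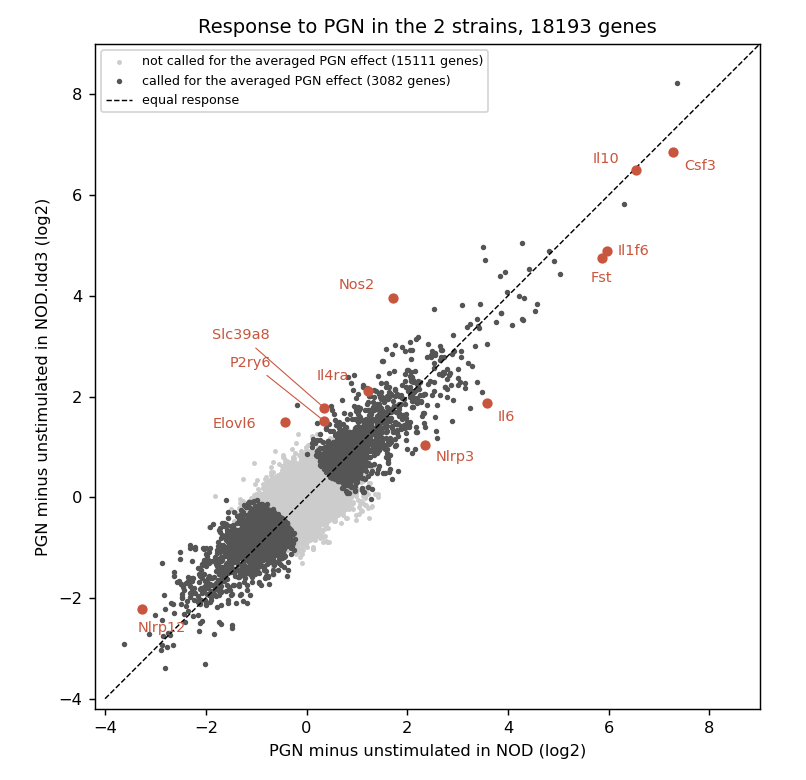
Log2 response to PGN in NOD cells (x axis) against that in NOD.Idd3 cells (y axis) for 18193 genes, each response a difference between means of 2 arrays. Dark points are the 3082 genes called for the effect averaged over strains, the dashed line marks equal responses, and orange points are named genes. Nos2 and Elovl6 lie above the line, Il6 and Nlrp3 below it, and Il10 on it.

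At an unadjusted p under 0.05 there were 609 genes (3.35%), 349 with the higher response in NOD.Idd3 (1.92%) and 260 with the lower (1.43%). More genes, 976 and 1076, had p-values from 0.05 to 0.10 and from 0.10 to 0.15. The count of 609 depended on single arrays. Among replicate 2 arrays it became 343 when PGN-treated NOD was left out, 221 for PGN-treated NOD.Idd3 and 308 for unstimulated NOD.Idd3. Among replicate 1 arrays it became 1205 when PGN-treated NOD was left out, 1636 for unstimulated NOD and 1171 for unstimulated NOD.Idd3. The other arrays, replicate 2 of unstimulated NOD and replicate 1 of PGN-treated NOD.Idd3, left 454 and 814. In each of these 8 fits 0 genes were called. Without the replicate number as a term, 314 genes had an unadjusted p under 0.05 and 0 were called. That fit ignores which arrays share a number, and the labels do not say whether such arrays were matched.

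The data limit how small a difference could be seen. The median standard error of the difference was 0.31, and the 95% interval reached a median of 0.72 to either side of the estimate. For 90.4% of genes it reached less than 1, which is a 2-fold difference between the strains' responses. These intervals hold for a single gene without adjustment, and a call over all 18193 genes needs a larger difference. Il6, at -1.70 ± 0.46, was not called in limma. Of the 3082 genes called for the PGN effect averaged over strains, 1311 rose (7.21% of all genes) and 1771 fell (9.73%). For 1381 of these 3082 (44.8%) the interval of the difference lay wholly within 2-fold in either direction. Estimates beyond 2-fold were found for 90 of the responding genes (2.92%) and 222 of all genes (1.22%). The middle of the distribution was narrow, with the 5th percentile at -0.58 and the 95th at 0.63.

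Replicates agreed on the response but hardly on the difference between strains. Across all genes, which are not independent replicates, the response in replicate 1 was correlated with that in replicate 2 at r = 0.66 in NOD and 0.72 in NOD.Idd3. For the difference in response r was 0.04 (Spearman's rho 0.04), and 51.8% of genes had the same sign in both replicates. Among the 3082 responding genes r was 0.21 (rho 0.22), with the same sign for 58.0%, beside 0.91 in each strain for the response itself. These genes were chosen by their response on the same arrays, which favours agreement of the response between replicates. The values of 0.21 and 0.91 are therefore not a like comparison. The difference also had a wider spread in replicate 2, with an SD over genes of 0.64 against 0.36 in replicate 1. Of the 609 genes at an unadjusted p under 0.05, 84.7% had the larger difference in replicate 2, beside 69.1% of all genes. The array of unstimulated NOD with the highest median belongs to replicate 2, where the difference in response computed from the array medians was 0.29, against -0.02 in replicate 1.

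**Figure D2:**
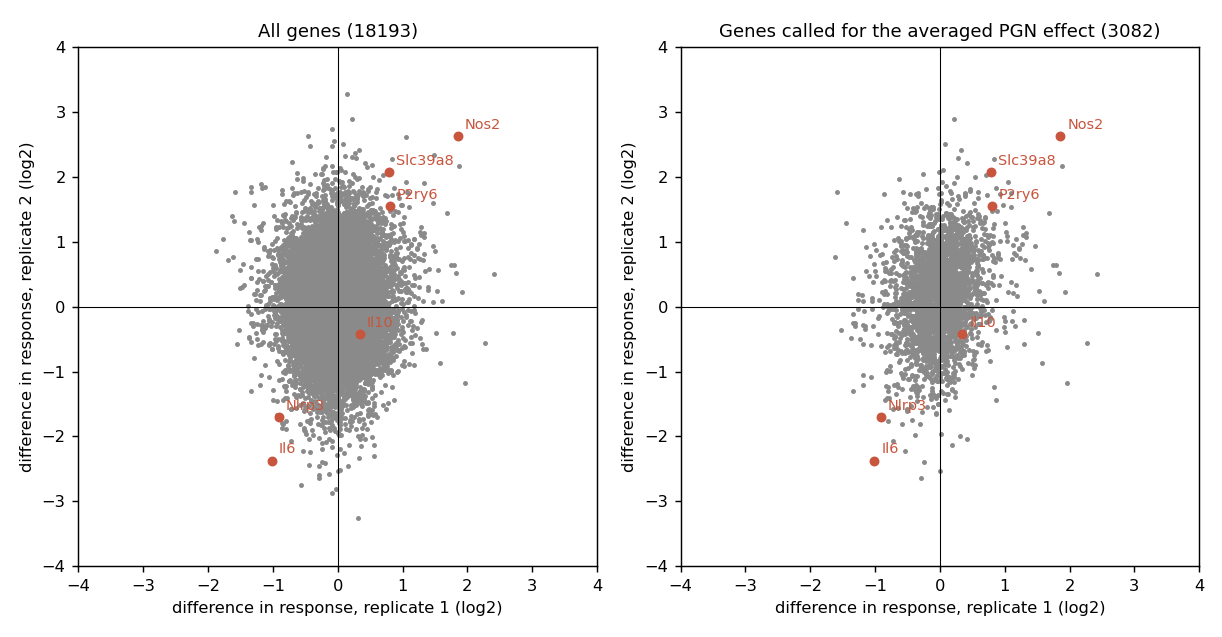
Difference in response (NOD.Idd3 minus NOD, log2) in replicate 1 (x axis) against replicate 2 (y axis), for all 18193 genes on the left and the 3082 genes called for the averaged PGN effect on the right. Each point is 1 gene and each value comes from 4 arrays. The cloud is taller than wide, and Il6, Nlrp3, Nos2, P2ry6 and Slc39a8 lie where both replicates have the same sign, while Il10 does not.

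Il6 encodes interleukin 6, an inflammatory cytokine that drives the acute phase response. Its log2 level was 6.78 and 5.22 (replicates 1 and 2) in unstimulated NOD and 9.60 and 9.56 in PGN-treated NOD cells. In NOD.Idd3 cells it was 7.64 and 6.55 unstimulated and 9.43 and 8.50 with PGN. The NOD.Idd3 arrays were the higher ones without PGN and the lower ones with it, in both replicates. Il6 rose by 3.57 ± 0.33 (SE, 2 arrays per group) in NOD and by 1.88 ± 0.33 in NOD.Idd3, with adjusted p of 0.0013 and 0.0145 in limma. The difference in response was -1.70 ± 0.46 (95% interval -2.75 to -0.64, unadjusted p = 0.00592, adjusted p = 0.942). It was -1.02 in replicate 1 and -2.38 in replicate 2. Over the alternatives and left-out arrays it lay between -2.28 and -1.12.

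Nlrp3 encodes the sensor of the inflammasome that matures interleukin 1 beta. It read 10.30 and 8.93 in unstimulated and 12.30 and 11.62 in PGN-treated NOD cells, and 10.32 and 9.65 in unstimulated and 11.41 and 10.64 in PGN-treated NOD.Idd3 cells. Without PGN the strains lay close in replicate 1 and NOD.Idd3 was the higher in replicate 2, while with PGN NOD.Idd3 was the lower in both replicates. Nlrp3 rose by 2.34 ± 0.23 in NOD and by 1.04 ± 0.23 in NOD.Idd3, and the difference was -1.31 ± 0.32 (interval -2.05 to -0.57, unadjusted p = 0.00348, adjusted p = 0.942).

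The promoters of Il6 and Nlrp3 are shown because these 2 genes gave the lowest estimates among the genes of innate receptors and cytokines, and that of Slc39a8 because it had the highest estimate among zinc transporter genes. Each run is the 250 bases before a RefSeq transcript start in GRCm38.p6, and capitals mark matches to the kB site, the motif bound by NF-kB, or to AP-1 (TGAGTCA or TGACTCA), searched on both strands.
Il6, chr5:30012864-30013113, plus strand: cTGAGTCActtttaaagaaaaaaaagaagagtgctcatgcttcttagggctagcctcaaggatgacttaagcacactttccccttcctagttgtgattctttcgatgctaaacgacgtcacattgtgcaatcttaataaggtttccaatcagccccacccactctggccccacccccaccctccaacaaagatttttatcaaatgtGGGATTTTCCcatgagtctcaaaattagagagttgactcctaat
Nlrp3, chr11:59541319-59541568, plus strand: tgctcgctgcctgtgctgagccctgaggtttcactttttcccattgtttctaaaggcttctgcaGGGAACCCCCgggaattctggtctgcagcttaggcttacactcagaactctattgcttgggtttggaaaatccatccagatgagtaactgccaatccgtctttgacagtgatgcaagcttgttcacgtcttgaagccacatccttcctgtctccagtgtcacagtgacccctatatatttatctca
Slc39a8, chr3:135825029-135825278, plus strand: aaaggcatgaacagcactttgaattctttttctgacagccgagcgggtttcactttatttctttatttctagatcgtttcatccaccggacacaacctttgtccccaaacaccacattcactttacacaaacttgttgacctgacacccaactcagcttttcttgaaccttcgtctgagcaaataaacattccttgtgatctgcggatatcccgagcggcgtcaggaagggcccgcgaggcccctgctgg

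The Il6 window held a kB match that begins 44 bases before the start and an AP-1 match at its far end, and this Nlrp3 window held a kB match. A second Nlrp3 window, and both windows of Slc39a8, held neither. Of all 32851 windows of this length 7.25% held a kB match and 4.46% an AP-1 match, and of the 602 windows of genes that rose at least 2-fold 13.3% and 8.14% did. The motifs do not overlap each other in the Il6 window, and a match, or its absence, describes only the letters of these windows.

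Among 24 measured genes of innate receptors and adaptors, which hold sensors of PGN, of other microbial products and of RNA or DNA, 9 rose and 7 fell with PGN averaged over strains. Nlrp3 was the 1 member at an unadjusted p under 0.05 for the difference, and the list's median was -0.12 beside 0.03 over all genes. Tlr2, the surface receptor for bacterial lipoproteins and PGN preparations, lay between 12.95 and 13.65 on all arrays, and its difference of 0.09 ± 0.26 had an interval of -0.52 to 0.70. Nlrp12, a NOD-like receptor that restrains NF-kB, fell by 3.27 ± 0.36 in NOD and by 2.21 ± 0.36 in NOD.Idd3. Its levels were 8.94 and 9.41 in unstimulated NOD and 8.41 and 8.27 in unstimulated NOD.Idd3 cells. With PGN they were 6.09 and 5.71 in NOD and 6.78 and 5.47 in NOD.Idd3 cells, so that the PGN arrays of the strains overlapped. The difference was 1.06 ± 0.51 (interval -0.12 to 2.24). Tlr8, a receptor for RNA, fell by 2.00 ± 0.34 in NOD and had a response of -1.26 ± 0.34 in NOD.Idd3 (adjusted p = 0.0709). Tlr4, the receptor for lipopolysaccharide, had a difference of -0.62 ± 0.42, and its 3 other probe sets had positive estimates. Irak3, an inhibitor of the receptors' kinase complex, had -0.22 ± 0.26.

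Of 20 NF-kB subunits and inhibitors 13 rose and 1 fell over both strains, and none reached an unadjusted p of 0.05 for the difference (median -0.11). Rel, an NF-kB subunit, rose by 1.98 ± 0.18 in NOD and 1.65 ± 0.18 in NOD.Idd3, with a difference of -0.33 (interval -0.92 to 0.27). Nfkbib, an inhibitor that holds NF-kB in the cytoplasm, gave -0.47 (-1.05 to 0.11), and Tnfaip3, which encodes the inhibitor A20, -0.38 (-1.08 to 0.31). Nfkbiz, a nuclear cofactor needed for Il6 induction, gave -0.64 (-1.54 to 0.26) and Zc3h12a, an RNase that degrades Il6 mRNA, -0.60 (-1.36 to 0.17). Another probe set of Nfkbiz gave 0.10 ± 0.42 and the other of Zc3h12a 0.42 ± 0.27, and over all named genes 31 of 91 further probe sets had the opposite sign. Tnip2, which binds A20, gave 0.57 (-0.04 to 1.17). Among 34 immediate early and MAP kinase feedback genes 14 rose and 3 fell, and the median difference was -0.16. Maff, a small Maf transcription factor, rose by 2.58 ± 0.23 in NOD and 1.84 ± 0.23 in NOD.Idd3 and was the only member at an unadjusted p under 0.05 (difference -0.75 ± 0.32).

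Of 24 inflammatory cytokine genes 17 rose and 1 fell, and 18 had a negative difference. The median difference was -0.22, with -0.01 in replicate 1 and -0.49 in replicate 2. Il6 and Il1f6 were the members at an unadjusted p under 0.05. Il1f6, an IL-1 family cytokine now called IL-36 alpha, read 4.83 and 4.05 in unstimulated NOD and 5.59 and 5.49 in unstimulated NOD.Idd3 cells. With PGN it read 10.14 and 10.68 in NOD and 10.47 and 10.38 in NOD.Idd3 cells. The strains were apart without PGN, at levels below the median of all genes, and overlapped with it. The difference was -1.09 ± 0.41, or -0.43 in replicate 1 and -1.75 in replicate 2.

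The other cytokine genes named here had smaller estimates. Csf3, the gene of the neutrophil growth factor G-CSF, rose by 7.28 ± 0.28 in NOD and by 6.85 ± 0.28 in NOD.Idd3, and the difference of -0.43 had an interval of -1.33 to 0.47. Inhba, which encodes an activin subunit, gave -0.78 (-1.59 to 0.04), with -1.30 in replicate 1 and -0.25 in replicate 2. Il23a and Il12a, whose products pair with that of Il12b to form IL-23 and IL-12, gave -0.85 (-2.21 to 0.51) and -0.19 (-1.63 to 1.25). Tnf read 11.57 and 10.80 unstimulated and 13.13 and 13.12 with PGN in NOD cells, and 11.46 and 11.60 unstimulated and 13.15 and 12.77 with PGN in NOD.Idd3 cells. Its difference was -0.51 (-1.32 to 0.30), or 0.14 in replicate 1 and -1.15 in replicate 2. Il1a gave -0.27 (-1.16 to 0.61), and Il1b, which did not pass for PGN and lay at 14.05 to 14.65 on every array, gave -0.23 (-0.90 to 0.43). These intervals include both 0 and, for each gene except Il1b, a 2-fold weaker response in NOD.Idd3.

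**Figure D3:**
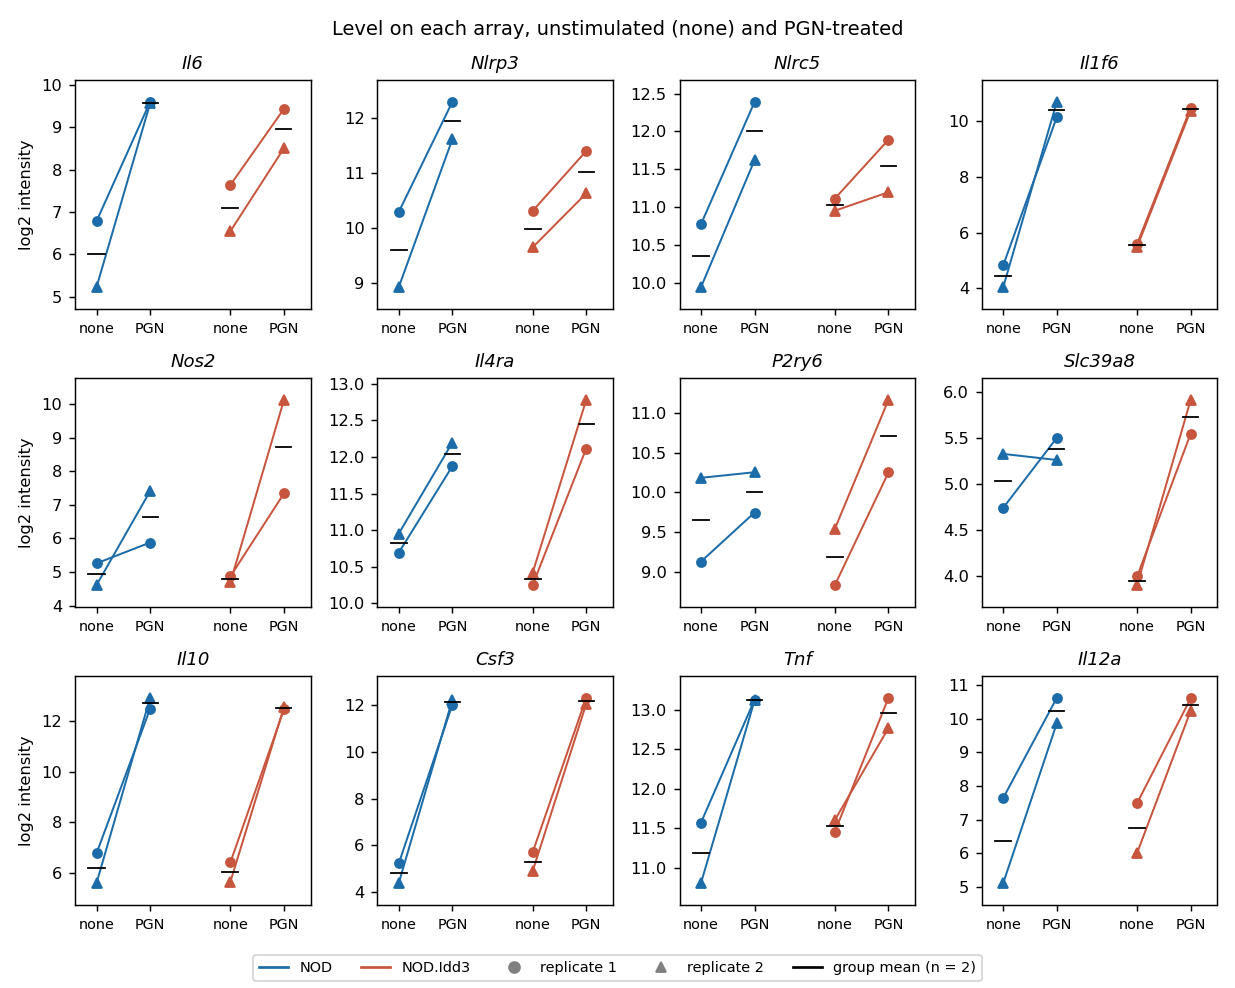
Log2 intensity of 12 genes on each array, unstimulated (none) and PGN-treated, in NOD (blue) and NOD.Idd3 (orange) cells. Circles are replicate 1, triangles replicate 2, lines join arrays of the same replicate number, and bars are means of 2 arrays. Lines of Il6, Nlrp3 and Nlrc5 are steeper in NOD, those of Nos2, Il4ra, P2ry6 and Slc39a8 steeper in NOD.Idd3, and those of Il10 and Csf3 about as steep in both.

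Among 26 chemokine genes 7 rose and 4 fell, with a median difference of -0.07. Cxcl11, a ligand of CXCR3, was the member at an unadjusted p under 0.05 (-1.01 ± 0.37) but had not passed for PGN in either strain. Of the neutrophil attractants, Cxcl1 gave -0.99 with an interval of -2.87 to 0.89 and Cxcl2 -0.51 (-1.38 to 0.37). Of the chemokines that attract monocytes and T cells, Ccl3 gave -0.12 (-0.92 to 0.68) and Ccl4 -0.46 (-1.64 to 0.72). Ppbp, a platelet chemokine gene, fell by 3.01 ± 0.24 in NOD and fell by 2.33 ± 0.24 in NOD.Idd3, with a difference of 0.67 (-0.12 to 1.46).

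Of 30 regulatory and tolerance genes 18 rose and 2 fell over both strains, and the median difference was 0.09, which became -0.05 once array medians were subtracted. Il10 read 6.77 and 5.59 unstimulated and 12.50 and 12.93 with PGN in NOD, and 6.41 and 5.65 unstimulated and 12.48 and 12.57 with PGN in NOD.Idd3 cells. The strains overlapped without PGN. Il10 rose by 6.54 ± 0.37 and 6.50 ± 0.37, and the interval of the difference of -0.04 ran from -1.23 to 1.15, so that differences up to about 2-fold either way remain within it. Its sign turned with a further quantile normalization (0.05).

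Nos2 makes nitric oxide from arginine in activated macrophages. Its log2 level was 5.26 and 4.61 in unstimulated NOD and 4.87 and 4.70 in unstimulated NOD.Idd3 cells, all below the median level of 6.45 over genes. With PGN it was 5.88 and 7.41 in NOD and 7.34 and 10.13 in NOD.Idd3 cells. In each replicate the NOD.Idd3 array with PGN was the higher, but replicate 1 of NOD.Idd3 lay below replicate 2 of NOD. Nos2 rose in NOD.Idd3 (3.96 ± 0.70, adjusted p = 0.0160) and did not pass in NOD (1.71 ± 0.70, adjusted p = 0.178). The difference was 2.24 ± 0.99 with an interval of -0.03 to 4.52 (unadjusted p = 0.0527, adjusted p = 0.942), and it was 1.85 in replicate 1 and 2.63 in replicate 2. With 1 array left out it ranged from 0.97 to 3.52.

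Il4ra, the IL-4 receptor chain through which macrophages are turned to alternative activation, was the regulatory gene with the smallest p. It read 10.69 and 10.95 in unstimulated and 11.87 and 12.20 in PGN-treated NOD cells. In NOD.Idd3 cells it read 10.25 and 10.42 unstimulated and 12.11 and 12.78 with PGN. NOD.Idd3 was below NOD without PGN and above it with PGN in both replicates. Il4ra rose by 1.21 ± 0.20 in NOD and 2.11 ± 0.20 in NOD.Idd3, a difference of 0.90 ± 0.28 (interval 0.25 to 1.55, unadjusted p = 0.0124, adjusted p = 0.942). One of its 2 other probe sets gave 0.77 ± 0.28 and the other, a dimmer one, -0.38 ± 0.32.

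Fst, which encodes the activin antagonist follistatin, was the other regulatory gene at an unadjusted p under 0.05, with -1.11 ± 0.39. It rose by 5.86 ± 0.28 and 4.75 ± 0.28 from 3.64 and 4.78 in unstimulated NOD and 5.02 and 5.77 in unstimulated NOD.Idd3 cells. Its other probe set gave the opposite sign, 1.20 ± 0.44. Ido1, the tryptophan-degrading enzyme gene, rose in NOD.Idd3 (2.46 ± 0.46) and did not pass in NOD (1.63 ± 0.46), and the difference was 0.83 (-0.67 to 2.33). Ptgs2, the prostaglandin synthase COX-2, gave -0.86 (-2.06 to 0.34) and Socs3, an inhibitor of IL-6 signalling, -0.97 (-2.18 to 0.24). For Socs3 this rested on replicate 2, with 0.02 in replicate 1 and -1.97 in replicate 2. Cd274, which encodes PD-L1, gave -0.59 (-1.32 to 0.14), Il1rn, the IL-1 receptor antagonist, -0.37 (-1.08 to 0.34), Arg1, which also consumes arginine, 0.65 (-0.72 to 2.02) and Tgfb1 0.41 (-0.23 to 1.04).

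**Figure D4:**
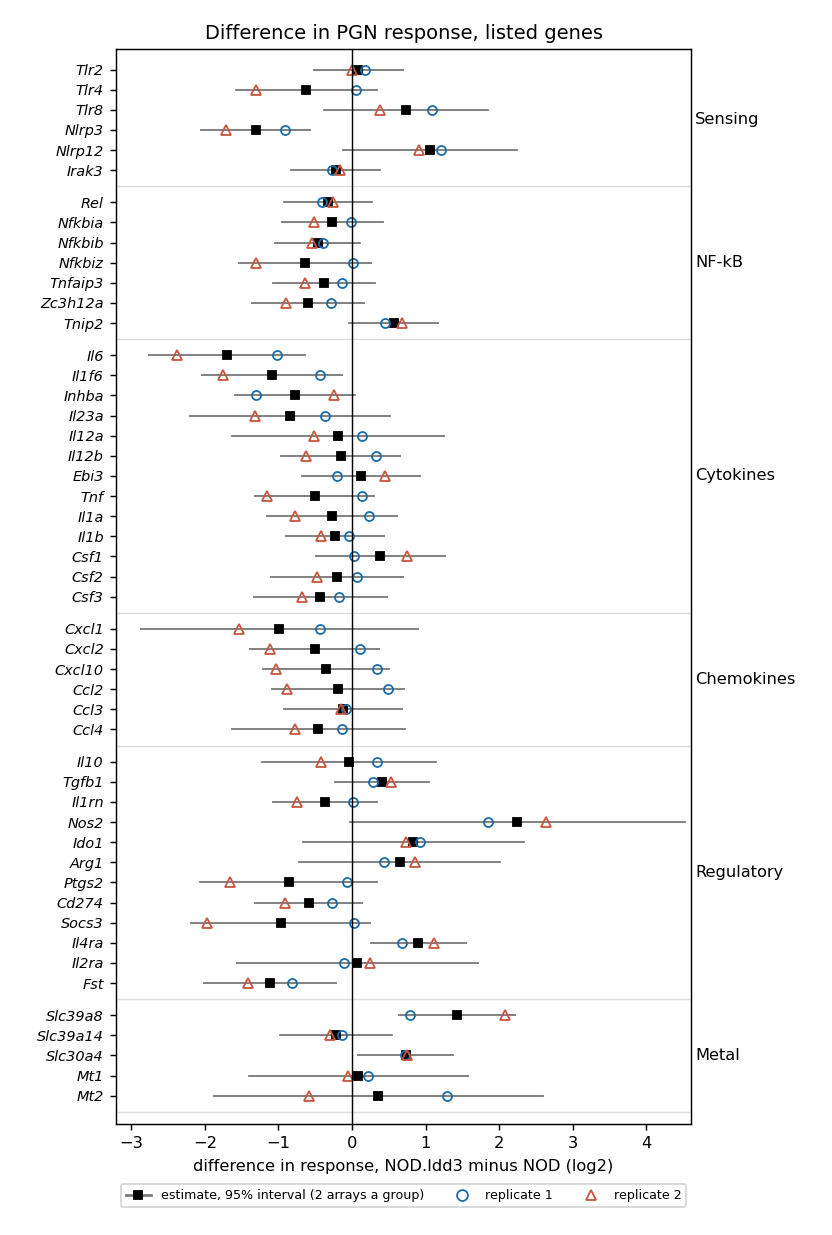
Difference in response (x axis, NOD.Idd3 minus NOD, log2) for named genes grouped by role. Squares are estimates with 95% intervals from 2 arrays per group, circles replicate 1 and triangles replicate 2. Intervals of Nlrp3, Il6, Il1f6 and Fst lie below 0 and those of Il4ra, Slc39a8 and Slc30a4 above it, before any adjustment over genes.

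Of the genes of the IL-2 family and JAK-STAT signalling, 11 of 23 rose, and Il4ra, which this list shares with the regulatory one, was the only member at an unadjusted p under 0.05. Il2ra, which makes that cytokine's high-affinity receptor chain, rose by 2.65 ± 0.50 in NOD and 2.73 ± 0.50 in NOD.Idd3, with a difference of 0.07 (-1.56 to 1.71). The other probe set of Il2ra gave -0.63 ± 0.35. Stat5a, which carries the IL-2 signal, rose by 1.41 ± 0.18 and 0.91 ± 0.18, a difference of -0.50 (-1.08 to 0.08). The other probe set of Stat5a gave the opposite sign, 0.25 ± 0.38. Il2 and Il21 were dim, at 3.32 to 3.71 and 2.91 to 3.23 over the 8 arrays, and gave 0.09 (-0.57 to 0.75) and 0.22 (-0.43 to 0.88). Of 16 measured genes in a list written by hand for Idd3 and its neighbours, without a check of positions, 0 reached an unadjusted p of 0.05. Their estimates ran from -0.60 to 0.53. The lowest was Adad1, a gene of the testis that neighbours Il2, at 3.10 to 4.04 on the arrays, and the highest Exosc9, an exosome subunit gene. On chromosome 3 as a whole 913 genes were tested, and 25 had a higher and 10 a lower response in NOD.Idd3 at an unadjusted p under 0.05 (3.83%, beside 3.35% of all genes).

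Among 28 metallothionein and zinc transporter genes, which control zinc within the cell, 7 rose and 2 fell. At an unadjusted p under 0.05 the importer gene Slc39a8 and the exporter gene Slc30a4 had the larger response in NOD.Idd3, and the importer gene Slc39a1 had the smaller (median of the list -0.09). Slc39a8, which encodes ZIP8, read 4.74 and 5.33 in unstimulated and 5.50 and 5.26 in PGN-treated NOD cells. In NOD.Idd3 cells it read 4.00 and 3.90 unstimulated and 5.55 and 5.91 with PGN. Unstimulated NOD.Idd3 arrays were the lowest and PGN-treated ones the highest, and all 8 were below the median level over genes. Slc39a8 rose in NOD.Idd3 (1.78 ± 0.24) and did not pass in NOD (0.35 ± 0.24), with a difference of 1.43 ± 0.34 (interval 0.65 to 2.22). Its other probe set gave -0.31 ± 0.47. Slc30a4 rose in both, by 0.98 ± 0.20 and 1.72 ± 0.20, with a difference of 0.73 ± 0.28 that was 0.72 in replicate 1 and 0.75 in replicate 2. Slc39a14, which encodes ZIP14, rose by 2.19 ± 0.24 and 1.97 ± 0.24 (difference -0.22, interval -0.98 to 0.55). The metallothionein genes Mt1 and Mt2 differed by 0.09 and 0.36, with intervals beyond 2-fold on both sides.

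The antigen presentation list had 4 rises and 1 fall among 23 genes, and its 1 member at an unadjusted p under 0.05 was Nlrc5, the transactivator of MHC class I genes. Nlrc5 read 10.77 and 9.94 unstimulated and 12.39 and 11.62 with PGN in NOD, and 11.11 and 10.95 unstimulated and 11.89 and 11.20 with PGN in NOD.Idd3 cells. NOD.Idd3 was the higher strain without PGN and the lower one with it in both replicates. Nlrc5 rose in NOD (1.65 ± 0.22) and did not pass in NOD.Idd3 (0.51 ± 0.22), with a difference of -1.14 ± 0.31 (interval -1.85 to -0.42). Cd40, Cd80 and Cd86, which encode co-stimulatory molecules, gave -0.17, 0.37 and 0.17.

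Over the 17 lists between 0% and 10.7% of members had an unadjusted p under 0.05 for the difference, the latter being 3 zinc genes of 28, beside 3.35% of all genes. The remaining lists had medians from -0.21 to 0.22. Scavenger and tissue macrophage genes had the highest, 0.22 over 28 genes, with 19 positive estimates and the same sign in both replicates for 21. None reached an unadjusted p of 0.05, and 1 rose and 5 fell with PGN. The 12 macrophage markers, all of them members of this list, had a median of -0.06, with 5 positive and 7 negative estimates. Trem2, a lipid receptor gene of macrophages, fell in NOD (-1.44 ± 0.25) and did not pass in NOD.Idd3 (-0.71 ± 0.25), and Mrc1, the mannose receptor gene, gave 0.67 (-0.08 to 1.43). In a bulk sample fewer cells of a type and less RNA per cell cannot be told apart. NRF2 and oxidative stress genes had a median of -0.21 with 13 of 16 negative, and the catalase gene Cat was at an unadjusted p under 0.05 (-0.93 ± 0.40). Interferon response genes had 0.17 (28 genes, 0 at an unadjusted p under 0.05), oxidative phosphorylation genes 0.14 (25 genes), glycolysis and hypoxia genes -0.08 (22 genes), and cell cycle genes 0.01 (28 genes), likewise with 0. Heat shock and unfolded protein genes had -0.15, and Hspa1a, an inducible chaperone gene, gave -1.07 ± 0.44, or -0.08 in replicate 1 and -2.07 in replicate 2. Subtraction of each array's median moved the median over all genes from 0.03 to -0.10 and those of the lists with it. It turned the sign of the IL-2 family (-0.02) and cell cycle (-0.12) medians as well as that of the regulatory list.

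**Figure D5:**
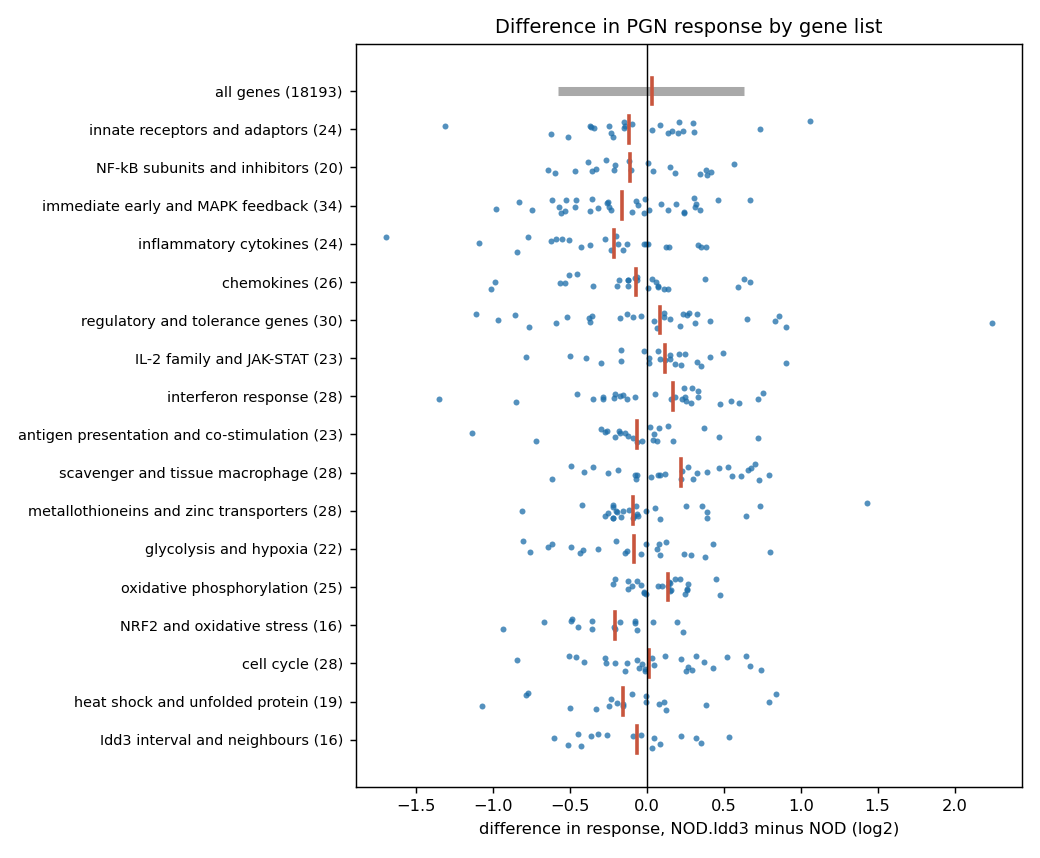
Difference in response (x axis, NOD.Idd3 minus NOD, log2) of each gene in 17 lists. Points are genes, orange bars are medians, the number of measured genes stands in brackets, and the grey bar spans the 5th to 95th percentiles of all 18193 genes. Medians lie between -0.22 (inflammatory cytokines) and 0.22 (scavenger and tissue macrophage), and the points farthest out are Il6 and Nos2.

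The 10 smallest p-values in each direction were chosen by the same difference and are given as a description. Phxr4 had the smallest (1.53 ± 0.28, unadjusted p = 0.0006, adjusted p = 0.942 in limma). It read 6.39 and 6.70 in unstimulated NOD and 5.98 and 5.87 in PGN-treated NOD, and 5.50 and 5.85 in unstimulated and 6.56 and 6.62 in PGN-treated NOD.Idd3 cells. The others with the higher response in NOD.Idd3 were Plekhh1 (1.62), Elovl6 (1.91), 0610040J01Rik (2.02), Poli (1.56), Epb41l4b (1.57), Slc39a8 (1.43), Zfp647 (1.13), Grhl3 (1.32) and P2ry6 (1.18). Those with the lower were Dkk1 (-1.20), D030056L22Rik (-1.34), Nlrp3 (-1.31), Ccdc122 (-1.32), Gsta2 (-1.30), Lurap1l (-1.33), Gm4665 (-1.02), Il6 (-1.70), Nlrc5 (-1.14) and 6720483E21Rik (-1.32). All 20 had the same sign in both replicates, as had all 609 genes at an unadjusted p under 0.05, beside 51.8% of all genes. A small p requires replicates that lie close, so this follows largely from the choice. In 10 of the 20 the strains' responses had opposite signs, beside 5330 of all 18193 genes. For the averaged PGN effect 12 passed, beside 3082 of all genes. Both counts depend on the choice, since a large difference favours opposite signs and both tests share a gene's estimate of spread. In 12 all group means were below the median level over genes, as in 46.8% of all genes. Of 11 further probe sets for 7 of these genes, 3 had the opposite sign.

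Within this group P2ry6, the receptor for extracellular UDP on myeloid cells, was well above the median level. It read 9.13 and 10.18 in unstimulated and 9.74 and 10.25 in PGN-treated NOD cells, and 8.83 and 9.54 in unstimulated and 10.25 and 11.16 in PGN-treated NOD.Idd3 cells. In each replicate NOD.Idd3 was the lower strain without PGN and the higher with it. P2ry6 rose in NOD.Idd3 (1.52 ± 0.20, adjusted p = 0.0062) and did not pass in NOD (0.34 ± 0.20). Elovl6, a fatty acid elongase gene, read 4.61 and 5.95 in unstimulated and 4.33 and 5.38 in PGN-treated NOD cells, and 4.72 and 4.78 in unstimulated and 5.92 and 6.55 in PGN-treated NOD.Idd3 cells. It rose in NOD.Idd3 (1.49 ± 0.30) and had a response of -0.43 ± 0.30 in NOD, and its 2 other probe sets gave 0.71 ± 0.31 and 0.14 ± 0.38. Gsta2, a glutathione transferase gene, rose in NOD (1.81 ± 0.24) and did not pass in NOD.Idd3 (0.52 ± 0.24). Zdhhc23, a palmitoyltransferase gene, is outside this group and was named from the genes called for the averaged effect. Its difference was 0.97 ± 0.26, with 0.93 in replicate 1 and 1.02 in replicate 2. Zdhhc23 rose by 1.43 ± 0.18 in NOD and 2.40 ± 0.18 in NOD.Idd3.

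Of the 13 marker lists, medians ran from -0.06 to 0.38, and 3 of 117 markers (2.56%) were at an unadjusted p under 0.05, beside 3.35% of all genes. These were the granule genes Ctsg (0.92, neutrophils) and Epx (0.76, eosinophils) and the fractalkine receptor gene Cx3cr1 (-1.28, monocytes), and within the neutrophil list 7 markers had a positive and 6 a negative estimate. For the B cell markers, whose levels differed between the strains, the median response was -0.18 in NOD and 0.10 in NOD.Idd3.

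Many genes were called in 1 strain and not in the other, which did not amount to a called difference. In NOD 1586 genes were called for the PGN effect and in NOD.Idd3 1207, of which 862 were shared. Of the 1069 called in 1 strain alone, 205 had an unadjusted p under 0.05 for the difference and 0 passed, and 23 had responses of opposite sign. The NOD count dropped to 334 when the second PGN array of that strain was left out and to 441 when its second unstimulated array was. The NOD.Idd3 count dropped to 443 and 73 on leaving out its PGN arrays (replicate 1, then replicate 2), and to 318 and 58 on leaving out its unstimulated arrays in that order. At a given condition limma called 0 genes between the strains, although 1051 had an unadjusted p under 0.05 unstimulated and 1655 with PGN. With a variance trend in its prior it called 4 genes unstimulated and 2 with PGN.

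The size of the response was also compared over the 3082 responding genes. The averaged effect chose them without using the estimated difference, though both tests share a gene's estimate of spread. The response was larger in NOD for 57.2%, with a median size difference of -0.07 (NOD.Idd3 minus NOD), close to the 55.9% and -0.05 over all 18193 genes. It was larger in NOD for 47.5% of the genes that rose and 64.4% of those that fell, and in replicate 1 alone for 53.0% and 53.1%. Once each array's median was subtracted these shares were 59.9% and 52.8%, so the split between rising and falling genes moved with the scaling. Without 1 array the share over all responding genes was 41.1% (replicate 1 of PGN-treated NOD.Idd3), 43.7% (replicate 1 of unstimulated NOD.Idd3) and 48.5% (replicate 2 of unstimulated NOD), and 54.3% to 72.3% for the others. The number of responding genes itself became 1995 and 1559 on leaving out the PGN arrays of NOD.Idd3 (replicate 1, then replicate 2), and 1824 and 1923 on leaving out its unstimulated arrays in that order. With 1 array left out the responding genes were chosen anew, and the averaged effect is then no longer independent of the difference. How far that choice moved the shares was not tested. In the reported fit, responses of opposite sign were found for 2 of the 3082 genes, beside 5330 of all 18193. Choice by the mean of both strains' responses favours equal signs, so the count of 2 does not measure agreement between the strains.

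Responses of the 2 replicates did not overlap between the strains for 6511 genes in either direction (35.8% of all genes). Among innate receptor genes 12 of 24 were apart in this sense, among NF-kB genes 12 of 20 and among inflammatory cytokines 8 of 24. Scavenger and tissue macrophage genes had 15 of 28 and oxidative phosphorylation genes 13 of 25. Among chemokines it was 3 of 26 and among interferon response genes 5 of 28. Il6, Nlrp3, Nlrc5 and Fst, all at an unadjusted p under 0.05 in limma, were among the genes whose strain responses were apart. Both measures come from the same 8 arrays, so this is no separate evidence.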

How the data were processed

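CD11b+ cells of 2 strains were measured on 8 single-channel arrays. The deposited table holds 1 linear intensity per probe set (45101 in all, from 3.97 to 42906). RMA is named in the submitters' processing notes and gives log2 values, so the authors' intensity values were taken here as raised back to the linear scale, which was not tested. No version or chip definition is stated there. Here log2 was taken again, with no further normalization, floor or filter. Probe sets that are controls (64), have no symbol (9160) or several (932) were left out. Of the 34945 with 1 symbol, 34741 matched RefSeq GRCm38.p6 by gene ID, and the probe set with the highest mean stood for each of 18193 genes.

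Limma 3.58.1 in R 4.3.3 (lmFit, eBayes) fitted the 4 group means with the replicate number as a term (3 residual and 5.17 prior degrees of freedom). Genes were called at a Benjamini-Hochberg adjusted p under 0.05 over all genes, and errors are limma standard errors. The replicate term was kept because the replicate 1 arrays share a label in their array names and the difference between replicates was correlated across genes between groups (r from 0.17 to 0.42 over 6 pairs). The fit was tested on simulated data. The number of arrays limits the precision.

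The comparison, gene lists and named genes were chosen with earlier results of these data known. Named are the 10 smallest p-values in each direction of the difference, the 6 each way among genes called for the averaged effect, a set of cytokine, receptor and regulator genes, and the 3 smallest p-values of each list. Other genes named (Itgam, Cd14, Csf1r, Cx3cr1, Ctsg and Epx) were chosen after their values were seen. Alternatives were no replicate term, the array-name suffix RR1 (meaning not given), a variance trend, removal of genes under the 40th percentile, testing only responding genes, the mean of all probe sets, no _x_at or _s_at probe sets, quantile normalization, array weights, 16 added before log2, each array left out and, chosen after seeing the data, array medians subtracted. The suffix RR1 stands on replicate 2 of both NOD groups and on replicate 1 of unstimulated NOD.Idd3. No PGN-treated NOD.Idd3 array carries it, so it is unevenly spread over the groups compared. Nod2, Irak4, Ripk2, Nfkb1 and Il27 were not analysed here.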

Additional observations from a re-analysis of the deposited data

How the results depend on the processing

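The absence of called differences in response held in all 19 alternatives, 8 of them with 1 array left out: limma called 0 genes in each, and 609 in the reported fit and 163 to 1636 elsewhere had an unadjusted p under 0.05. Other counts moved, and the cause was not tested except where fewer samples or genes were fitted. Without the replicate block, in a fit that ignores shared replicate numbers, 717 genes were called for PGN in NOD (reported 1586). In NOD.Idd3 572 were called (1207) and averaged over strains 2049 (3082), and 314 had an unadjusted p under 0.05 for the difference (609). The RR1 suffix as a term gave 954 such genes, and 39.4% of rising genes had the larger response in NOD. A variance trend gave 1969 genes called in NOD.Idd3 and 4 and 2 between strains unstimulated and with PGN. Testing only the 3082 responding genes gave 163 at an unadjusted p under 0.05. In the reported fit 6.23% of those genes had such a p, beside 3.35% of all genes. Both tests use the same estimate of a gene's spread, so choosing genes by the averaged effect favours small p-values for the difference too. How far this moved the share was not tested. With array medians subtracted the shares larger in NOD were 59.9% of rising and 52.8% of falling genes, and in replicate 1 alone 53.0% of all responding and 53.1% of falling genes. With 1 array left out, counts were 334 to 1821 in NOD, 58 to 1457 in NOD.Idd3, 1559 to 3345 averaged and 221 to 1636 for the difference at an unadjusted p under 0.05, and the shares larger in NOD were 41.1% to 72.3% of all, 31.0% to 63.8% of rising and 42.4% to 82.5% of falling genes.

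Of 109 named genes, 87 kept the sign of their difference in every setting that fitted them, 22 reversed in at least 1, and 0 passed in any. The RR1 term reversed Il10 (0.028) and Il2 (-0.012). The mean of probe sets reversed Fst (0.042), Il2ra (-0.28), Slc39a14 (0.035) and Tlr4 (0.22), and leaving out _x_at and _s_at probe sets reversed Mt1 (-0.062), Rrm2 (0.0041) and Socs3 (0.049). Quantile normalization reversed Ccl3 (0.032), Il10 (0.054) and Il2ra (-0.12), and 16 added before log2 Il2ra (-0.12). Array medians subtracted reversed Ebi3 (-0.013), Il2 (-0.048), Il2ra (-0.063), Mt1 (-0.050) and Tlr2 (-0.048). Leaving out 1 array reversed Ccl2 (-0.64 to 0.26), Ccl3 (-0.37 to 0.13), Ccl4 (-1.01 to 0.095), Cd40 (-0.43 to 0.087), Csf1 (-0.077 to 0.85), Csf2 (-0.64 to 0.24), Cxcl10 (-0.73 to 0.036), Ebi3 (-0.27 to 0.52), Il10 (-0.59 to 0.51), Il12a (-1.02 to 0.64), Il12b (-0.54 to 0.23), Il1a (-0.73 to 0.19), Il2 (-0.12 to 0.29), Il2ra (-0.86 to 1.00), Mt1 (-0.65 to 0.82), Mt2 (-0.88 to 1.59), Slc39a14 (-0.47 to 0.030) and Tlr2 (-0.044 to 0.22). With 2 arrays per group, each such fit leaves 1 group with a lone array that is assumed to vary like the others, and the number of arrays limits every estimate.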
